A study of Saccharomyces cerevisiae with 4 samples.

Results

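Newly made RNA of the zinc regulon was measured in budding yeast (Saccharomyces cerevisiae) with and without rapamycin. The strain was built so that rapamycin can remove Ssl2, the DNA translocase of the transcription factor TFIIH, from the nucleus. The counts do not show whether Ssl2 was removed. The 9 genes described here, ZRT1, ZRT2, ZRT3, ZAP1, ZRC1, IZH1, IZH2, IZH4 and ADH4, were found by systematic name in the deposited annotation of 6030 transcripts. All 9 were present, and all 9 passed the filter on low counts, as did 5707 features in all.

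Both groups came from the same strain, labelled Y40343 with the genotype Ssl2-FRB::kanMX6, in which the FRB tag allows rapamycin to tie Ssl2 to a partner protein exported from the nucleus (anchor-away). The with rapa group (2 libraries) received rapamycin and the no rapa group (2 libraries) did not. Cells of both groups grew in YPD, a rich glucose medium, and took up 4-thiouracil for a short time, so that the RNA made in that time could be purified and sequenced. The labels give neither the rapamycin dose nor its duration, and they do not say whether replicates were separate cultures, so the spread behind the p-values may be technical. In bulk RNA, fewer cells making a transcript and less RNA per cell cannot be told apart.

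Yeast cells keep cytosolic zinc within narrow limits through the transcription activator Zap1, which becomes active when zinc is scarce and binds zinc-responsive elements (ZREs) upstream of its targets. These targets include the plasma membrane importers Zrt1 and Zrt2, the vacuolar exporter Zrt3 and ZAP1 itself. Zinc is stored in the vacuole by the importer Zrc1. The Izh proteins are membrane proteins related to the adiponectin receptors and take part in zinc and lipid homeostasis, and ADH4 encodes an alcohol dehydrogenase made under zinc limitation.

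The ZRE consensus, ACCTT and AAGGT separated by 1 base of any kind, which reads the same on both strands, was searched in the 500 bp before the start codon on the R64 genome (RefSeq), to show which of the 9 promoters carry the letters that Zap1 is known to bind. All 10 fixed bases were matched upstream of 1 of the 9 genes, ZRT1, and in 0.165% of 4842 promoters searched. With up to 1 mismatch the motif stood upstream of 6 of the 9 genes, against 2.15% of all promoters. The 9 genes were listed as zinc regulon genes, so a higher share was likely in advance and is no test. The promoters of the 9 genes are among all those searched. The 8 sites follow, each written 5′ to 3′ on the strand of its gene, with the 11 bases of the match in capitals between flanks.
ZRT1, matching site, chrVII:20765-20793, plus strand: acatatttgACCTTGAAGGTcatggaaag
ZRT1, upstream site, chrVII:20650-20678, plus strand: accaaagatACCCTCAAGGTtctcatctg
ZRT2, upstream site, chrXII:404354-404382, minus strand: agggacataACCCTAAAGGTtatatgcga
ZRT2, downstream site, chrXII:404305-404333, minus strand: tttttcacaACCTTTAGGGTacattgccc
ZRT3, chrXI:118629-118657, plus strand: gtgacaacaACCTTAAGGGTaatggactt
ZAP1, chrX:333198-333226, minus strand: cagtcatctACCCTAAAGGTcatgatgaa
ZRC1, chrXIII:756321-756349, minus strand: cttcagatgGCCTTGAAGGTgaggaatga
IZH1, chrIV:1434498-1434526, plus strand: tatcatgcaACCTTTAGGGTccaagccct

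Counting from 1 at the 5′ end of the motif, with the motif's base first, the difference was T4C in the upstream ZRT1 site, the upstream ZRT2 site and the ZAP1 site. It was A8G in the downstream ZRT2 site and in the sites of ZRT3 and IZH1, and A1G in the ZRC1 site. Since the motif reads the same on both strands, A8G is T4C read on the other strand. ZRT1 and ZRT2 had 2 sites each, as did 0.0826% of all promoters with 2 or more. The matching site of ZRT1 began 204 bp before the start codon and 159 bp before the deposited transcript start, and all 8 sites lay upstream of the deposited transcript start of their gene. No site with up to 1 mismatch was found in the same window of IZH2, IZH4 or ADH4. The deposited ADH4 transcript starts 498 bp before its start codon, so that the window searched for ADH4 lies almost wholly inside the deposited transcript. In the 300 bp before that transcript start (chrVII:14361-14660, plus strand), ADH4 had 1 site with 1 mismatch, A8C, which began 20 bp before the transcript start. Of 4842 such windows before deposited transcript starts, 1.32% held a site with up to 1 mismatch, while those of IZH2 and IZH4 held none.
ADH4, chrVII:14632-14660, plus strand: cttaaatgaACCTTCACGGTtaagcaacc

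The motif TATAAA on the coding strand was found in the windows of 3 of the 9 genes, ZRT1, IZH4 and ADH4, against 39.7% of all promoters. In ADH4 it lay inside the deposited transcript, and the 300 bp before that transcript start held none. A match describes letters and does not show binding.

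The 300 bases before the ZRT1 transcript start (chrVII:20633-20932, plus strand, R64), shown because ZRT1 had the lowest fold change of the 9 genes and the one full match, read as follows with the matching ZRE in capitals.
ZRT1 upstream region: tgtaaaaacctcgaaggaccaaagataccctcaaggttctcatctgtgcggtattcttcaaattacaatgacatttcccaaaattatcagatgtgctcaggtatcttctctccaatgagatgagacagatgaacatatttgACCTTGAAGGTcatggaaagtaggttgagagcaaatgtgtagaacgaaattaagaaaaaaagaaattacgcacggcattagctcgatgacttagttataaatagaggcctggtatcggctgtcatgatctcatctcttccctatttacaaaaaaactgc

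**Figure D1:**
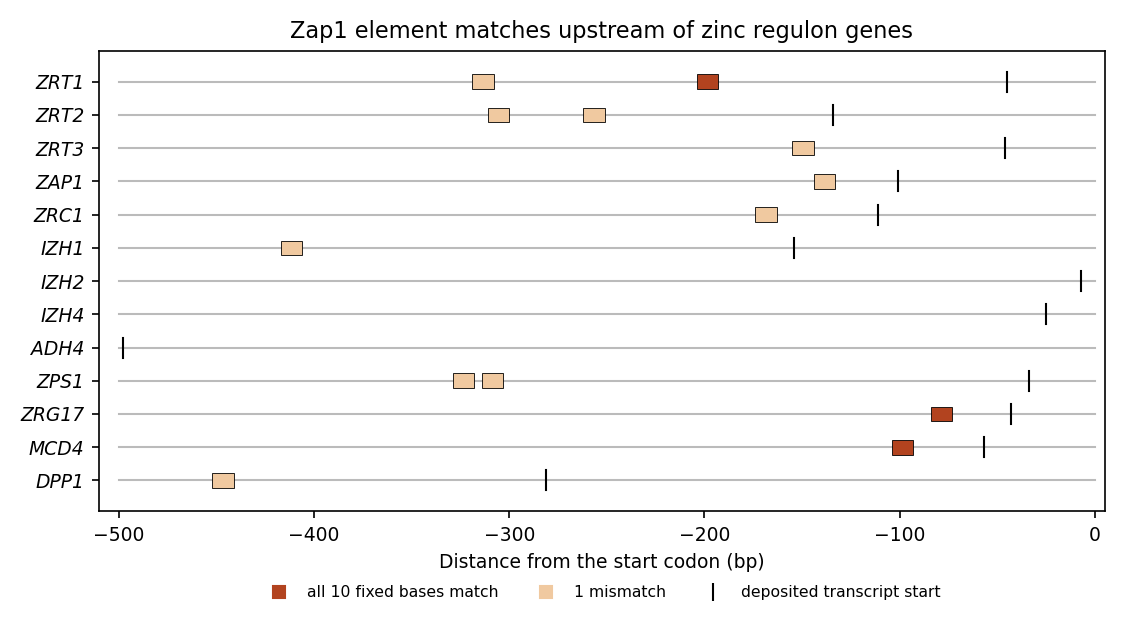
Positions of ZRE matches in the 500 bp before the start codon (x axis, bp from the start codon) for the 9 genes and for the other Zap1 targets that had a match. Dark boxes match all 10 fixed bases, pale boxes have 1 mismatch and vertical ticks mark the deposited transcript start; only ZRT1, ZRG17 and MCD4 have a dark box.

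Feature counts were 11441998 and 12685769 in the with rapa libraries and 32435994 and 29318499 in the no rapa libraries. Reads behind a zinc regulon gene numbered 76 to 3400 in the with rapa libraries and 146 to 5998 in the no rapa libraries, IZH4 being the lowest and ZRC1 the highest in every library. Levels are CPM, read counts divided by library size, scaled by TMM, a normalization that centres fold changes on the bulk of features, so each change is relative to that bulk. FPR1, which encodes the protein through which rapamycin acts on the TORC1 kinase, had 23 and 23 counts with rapamycin and 68 and 66 counts without, where the median feature had 493 and 627 counts with rapamycin and 1591 and 1572.5 counts without. The alpha-cell genes MF(ALPHA)1 and STE3 averaged 349.6 and 90.7 CPM with rapamycin and 358.3 and 333.8 CPM without, and the a-cell genes STE2 and BAR1 averaged 12.8 and 10.1 CPM with rapamycin and 16.7 and 2.90 CPM without. Of these 4 mating type markers, STE3 was lower and BAR1 higher by the test used below. The part of strain state or mating type in the zinc genes' values was not tested.

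With rapamycin, newly made RNA of the plasma membrane importer genes ZRT1 and ZRT2 was lower relative to the bulk of features. That of IZH2 and ADH4 was also lower, while that of ZAP1 was slightly higher. With scaling to total counts, ZRT2 (log2 fold change -0.53) and IZH2 (-0.76) were not called. Of the 9 genes, 1 was higher, 4 were lower and 4 did not pass the test (quasi-likelihood test of edgeR; adjusted p under 0.05 by Benjamini-Hochberg over 5707 features). In the same comparison 46.0% of all features were called, 19.3% higher and 26.7% lower, so 5 called of 9 is close to the background share. The median log2 fold change was -0.58 over the 9 genes, -0.03 over all features tested and -0.14 over the 4910 open reading frames tested. Libraries of the groups did not overlap for 7 of the 9 genes, 2 higher and 5 lower, where 74.2% of all features did not overlap, 34.1% higher and 40.1% lower. The CPM of the 9 genes summed to 596 and 639.7 with rapamycin and to 707 and 647 without.

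**Figure D2:**
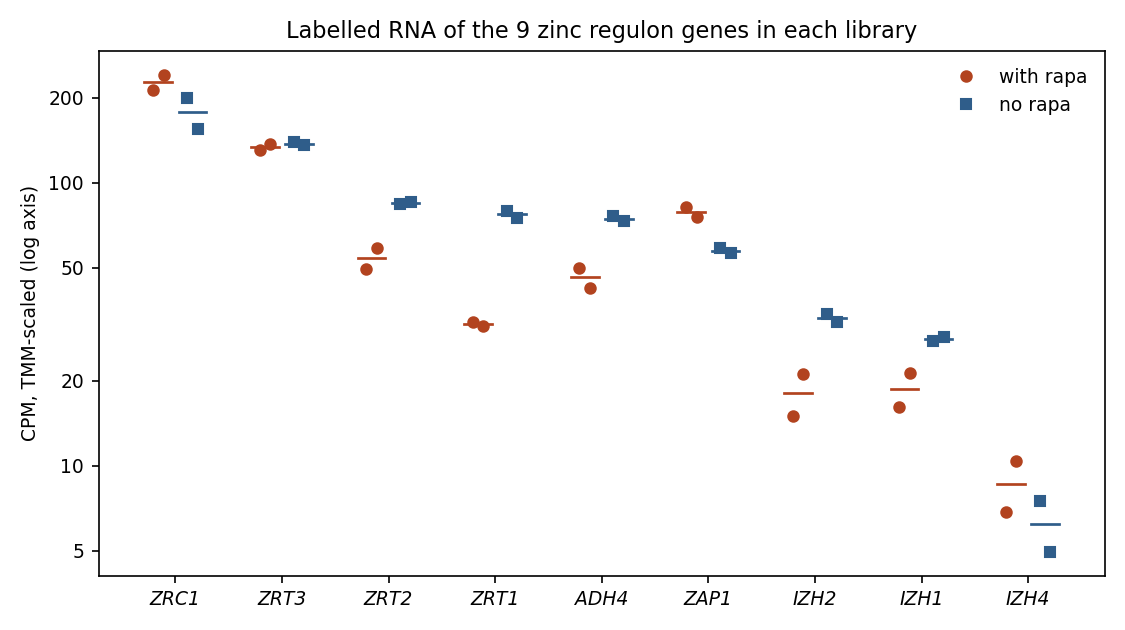
CPM with TMM scaling (log axis) of each of the 9 genes, with the with rapa libraries as circles at the left and the no rapa libraries as squares at the right of each gene; horizontal lines are group means (n = 2). ZRT1 at 32.3 and 31.1 CPM with rapamycin lies below 79.4 and 75.4 CPM without, whereas the points of ZRT3 overlap.

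ZRT1 (YGL255W, chromosome VII, 20933 to 22204, plus strand) encodes the high-affinity importer and had the lowest fold change of the 9. Its levels were 32.3 and 31.1 CPM with rapamycin and 79.4 and 75.4 CPM without. Both with rapa libraries lay below both no rapa libraries, 2.44-fold lower by the edgeR fit, and the replicates of each group lay close together. The log2 fold change was -1.29 ± 0.19 (SE; 95% interval -1.69 to -0.88; adjusted p = 0.00017, edgeR quasi-likelihood test).

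ZRT2 (YLR130C, chromosome XII, 402751 to 404196, minus strand) encodes the low-affinity importer. It measured 49.7 and 58.9 CPM with rapamycin and 84.2 and 85.5 CPM without, again without overlap. Its log2 fold change was -0.64 ± 0.18 (SE; adjusted p = 0.0111, edgeR). Leaving out no rapa replicate 1 took the adjusted p of ZRT2 above the threshold (adjusted p = 0.0640, edgeR; log2 fold change -0.67), as did leaving out no rapa replicate 2 (0.0700; -0.65). The call was also lost with upper-quartile factors (0.191; -0.32) and with scaling to total counts (0.0668; -0.53).

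The importer genes share 64.7% of aligned coding bases, and their longest identical run is 12 bp, so reads longer than that run differ between them. Counts of ZRT1 per 100 counts of ZRT2, a ratio within a library that no scaling changes, were 64.9 and 52.8 with rapamycin and 94.3 and 88.1 without. Per 100 counts of ZAP1, ZRT1 had 39.2 and 40.9 counts with rapamycin and 135.4 and 133.2 without. The groups lay closer per 100 counts of IZH2, at 215.1 and 147.5 with rapamycin and 230.7 and 233.0 without. These ratios are given as a description and were not tested.

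The members of the regulon that act in vacuolar zinc transport, ZRT3 and ZRC1, were not called with TMM. ZRT3 (YKL175W, chromosome XI, 118747 to 120469, plus strand), for the exporter that releases stored zinc, measured 130.6 and 137.3 CPM with rapamycin and 139.6 and 135.5 CPM without. The groups overlapped, and the 95% interval of the log2 fold change ran from -0.38 to 0.30 around -0.04 (adjusted p = 0.863, edgeR). Its sign was positive under 5 of the scaling or tool alternatives, up to 0.28 with upper-quartile factors, and without with rapa replicate 2 (0.019). ZRC1 (YMR243C, chromosome XIII, 754644 to 756277, minus strand), for the importer that loads the vacuole, measured 213.0 and 241.2 CPM with rapamycin and 199.2 and 155.2 CPM without. No rapa replicate 2 was the lowest of the 4 libraries, and the groups did not overlap. Its log2 fold change was 0.36 ± 0.18 (SE; adjusted p = 0.119, edgeR). ZRC1 was called higher when with rapa replicate 1 was left out (adjusted p = 0.0370, edgeR; log2 fold change 0.42), with open reading frames alone (0.0332; 0.48), with total counts (0.0486; 0.48) and with upper-quartile factors (0.00616; 0.68). Without no rapa replicate 2 its log2 fold change was 0.17.

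ZAP1 (YJL056C, chromosome X, 330320 to 333174, minus strand), which encodes the activator of the regulon, was the one member called higher. It measured 82.3 and 76.0 CPM with rapamycin and 58.7 and 56.6 CPM without, and the groups did not overlap. The log2 fold change was 0.46 ± 0.17 (SE; 95% interval 0.08 to 0.83; adjusted p = 0.0472, edgeR), close to the threshold. ZAP1 lost its call without with rapa replicate 1 (adjusted p = 0.120, edgeR; 0.37), without no rapa replicate 1 (0.216; 0.47), without no rapa replicate 2 (0.267; 0.42) and with no filter on low counts (0.0598; 0.43). Upper-quartile factors gave 0.77 (adjusted p = 0.00371).

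Among the IZH genes, IZH2 was called lower, and IZH1 and IZH4 were not called. IZH2 (YOL002C, chromosome XV, 323337 to 324371, minus strand) encodes a membrane protein that is a receptor for the plant defence protein osmotin. Its levels were 15.0 and 21.1 CPM with rapamycin and 34.4 and 32.3 CPM without, so both with rapa libraries were below both no rapa libraries. The log2 fold change was -0.88 ± 0.26 (SE; adjusted p = 0.0137, edgeR). IZH2 lost its call without no rapa replicate 1 (adjusted p = 0.101, edgeR; -0.85), without no rapa replicate 2 (0.0585; -0.94), with upper-quartile factors (0.129; -0.56) and with total counts (0.0692; -0.76).

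IZH1 (YDR492W, chromosome IV, 1434770 to 1435943, plus strand) measured 16.1 and 21.3 CPM with rapamycin and 27.7 and 28.4 CPM without. These groups did not overlap either, but the log2 fold change of -0.58 ± 0.26 (SE) had an adjusted p of 0.0807 by edgeR. Without with rapa replicate 2, IZH1 was called lower (adjusted p = 0.0292, edgeR; -0.71). IZH4 (YOL101C, chromosome XV, 126873 to 127945, minus strand) had the fewest reads, at 6.87 and 10.4 CPM with rapamycin and 7.51 and 4.97 CPM without. Its groups overlapped, and the 95% interval of its log2 fold change, -0.52 to 1.47 around 0.47, leaves both directions possible (adjusted p = 0.420, edgeR). Without with rapa replicate 2 that value was 0.24, without no rapa replicate 2 it was 0.19, and without no rapa replicate 1 it was 0.79. Coding identity between IZH1 and IZH4 was 62.6%, and the 3 pairs of these genes shared no identical run over 10 bp.

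ADH4 (YGL256W, chromosome VII, 14661 to 16524, plus strand) lies upstream of ZRT1 on the same strand, 4408 bp away with 2 features between them. It measured 50.1 and 42.5 CPM with rapamycin and 76.3 and 73.2 CPM without, with no overlap. The log2 fold change was -0.69 ± 0.18 (SE; adjusted p = 0.00885, edgeR). ADH4 lost its call without no rapa replicate 1 (adjusted p = 0.0702, edgeR; -0.67) and with upper-quartile factors (0.116; -0.38), and without with rapa replicate 2 the log2 fold change was -0.48 (0.0494).

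**Figure D3:**
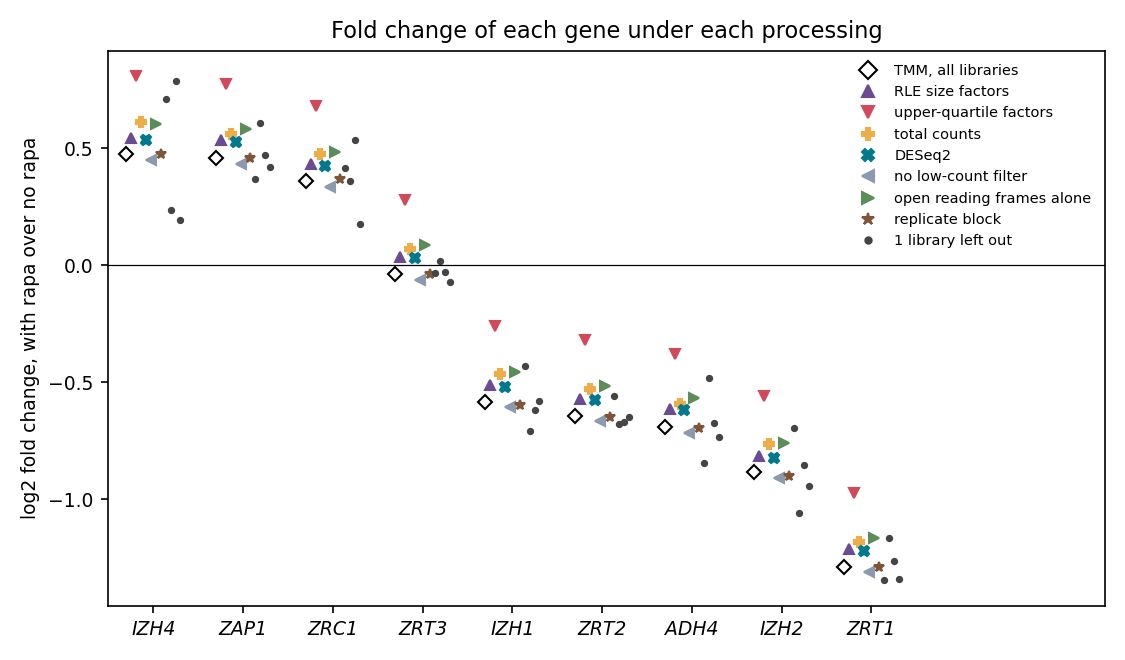
Log2 fold change, with rapa over no rapa (y axis), of each of the 9 genes under each processing (markers as in the key; black dots leave out 1 library). All values of ZRT1 lie between -1.35 and -0.97, those of ZRT3 lie on both sides of 0, and upper-quartile factors give the highest value for all 9 genes.

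Among the 9 genes, ZRT1 alone passed the threshold as lower under all 11 alternatives run, with adjusted p between 1.85e-09 and 0.00169 (edgeR or DESeq2). ADH4 passed in 9 of 11, ZRT2, IZH2 and ZAP1 each in 7 of 11, ZRC1 in 4, IZH1 in 1 and ZRT3 and IZH4 in 0. With upper-quartile factors the median of all features moved up by 0.32 on the log2 scale, and 63.97% of all calls were higher, against 42.0% with TMM. With total counts it moved up by 0.10.

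Per kb of deposited transcript, which adjusts levels between genes for annotated length alone, the order of levels differed between the groups. With rapamycin it ran ZRC1 (139.0 ± 12.2 CPM per kb, SD, n = 2), ZRT3 (77.7 ± 2.74), ZRT2 (37.6 ± 4.47), ZAP1 (27.7 ± 1.56), ZRT1 (24.9 ± 0.674), ADH4 (24.8 ± 2.89), IZH2 (17.4 ± 4.14), IZH1 (15.9 ± 3.12) and IZH4 (8.06 ± 2.34). Without rapamycin it ran ZRC1 (108.5 ± 19.0 CPM per kb, SD, n = 2), ZRT3 (79.8 ± 1.65), ZRT1 (60.9 ± 2.27), ZRT2 (58.7 ± 0.641), ADH4 (40.1 ± 1.17), IZH2 (32.3 ± 1.43), IZH1 (23.9 ± 0.442), ZAP1 (20.2 ± 0.510) and IZH4 (5.81 ± 1.67). ZRT1 was thus in place 5 with rapamycin and in place 3 without, and ZAP1 in place 4 with rapamycin and in place 8 without. With rapamycin, ZRT1 and ADH4 overlapped over their libraries, as did IZH2 and IZH1. ZAP1 (28.8 and 26.6 CPM per kb) also overlapped ADH4 (26.9 and 22.8) there, though they are not neighbours in the order. Without rapamycin no neighbours in the order overlapped, though ZRT1 and ZRT2 differed by less than the SD of ZRT1.

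**Figure D4:**
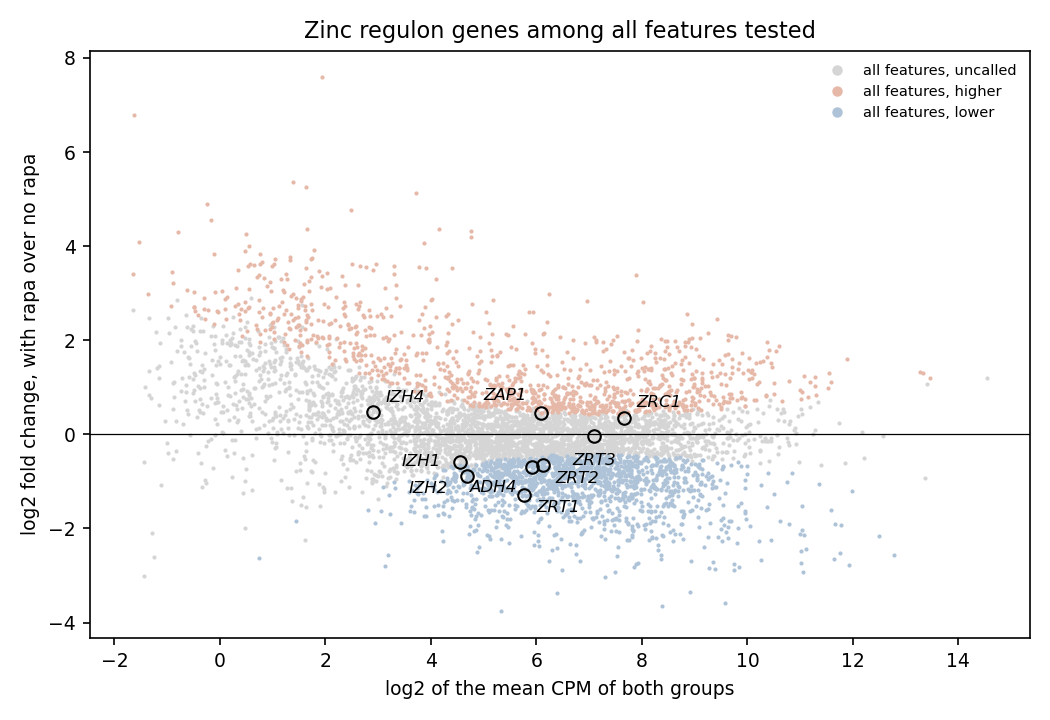
Log2 fold change, with rapa over no rapa (y axis), against the log2 of the mean CPM of both groups (x axis) for the 5707 features tested, coloured by call, with the 9 zinc regulon genes circled. The 9 genes lie inside the cloud, from -1.29 (ZRT1) to 0.47 (IZH4).

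The genes that share a promoter region with a member were read from the same fit, since divergent transcription starts within 1000 bp of each other can share regulatory sequence. ZAP1 and LOG1, a gene of the lysine decarboxylase-like family, start 166 bp apart on opposite strands. LOG1 measured 87.5 and 92.9 CPM with rapamycin and 40.4 and 52.6 CPM without, and rose by 0.96 ± 0.19 on the log2 scale (SE; adjusted p = 0.00154, edgeR). ZAP1 and LOG1 were therefore both called higher. ADH4 and MNT2, a mannosyltransferase gene that starts 395 bp from it, were both called lower, MNT2 at -0.51 ± 0.17 (SE; adjusted p = 0.0248, edgeR). The MNT2 call was lost without no rapa replicate 1 (0.152; -0.51) and without no rapa replicate 2 (0.117; -0.54), and under 5 other alternatives.

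ZRT3 and IZH1 each had a divergent neighbour that was called where the member was not. The differences in fold change within these pairs were not tested. LST4, which encodes a protein needed for sorting amino acid permeases and starts 415 bp from ZRT3, fell by 0.70 on the log2 scale (-0.70 ± 0.18, SE; adjusted p = 0.00688, edgeR), a call lost without no rapa replicate 1 (0.0870; -0.64) and with upper-quartile factors (0.0666; -0.38). PKH1, a protein kinase gene that starts 417 bp from IZH1, was lower (log2 fold change -0.95 ± 0.19, SE; adjusted p = 0.00162, edgeR). The 3′ end of ZRT3 overlaps that of TPO5, a polyamine transporter gene on the opposite strand, by 172 bp. TPO5 was not called (-0.14 ± 0.17, SE; adjusted p = 0.540, edgeR). The strand setting of the counting is not given in the sources used here, but 204 of 254 features that lie wholly under an opposite-strand feature had counts in every library. CUT356, a cryptic unstable transcript 347 bp from IZH4, had 2 and 0 counts with rapamycin and 0 and 0 without.

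The other genes of zinc transport were mostly lower, including those of the endoplasmic reticulum. Of 6 other zinc transporter genes and Izh relatives, 0 were higher, 5 lower and 1 uncalled, with a median log2 fold change of -0.85. Of all features, 26.7% were lower and the median was -0.03. Of the 4910 open reading frames tested, 30.2% were lower and the median was -0.14. All 5 lower genes of the list are named here, 2 of them (MSC2 and YKE4) after their values were seen. ZRG17 and MSC2 encode partners in an endoplasmic reticulum zinc transporter. ZRG17 measured 42.3 and 43.3 CPM with rapamycin and 136.4 and 133.9 CPM without (log2 fold change -1.66 ± 0.17, SE; adjusted p = 1.65e-05, edgeR). MSC2 fell by 0.71 on the log2 scale (SE 0.16; adjusted p = 0.00346, edgeR), a call lost without no rapa replicate 1 (0.0504; -0.65) and with upper-quartile factors (0.0585; -0.39). YKE4, for another transporter of that compartment, measured 47.3 and 48.3 CPM with rapamycin and 92.1 and 81.5 CPM without.

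COT1, for the vacuolar zinc and cobalt importer related to Zrc1, measured 107.2 and 99.5 CPM with rapamycin and 197.4 and 186.6 CPM without (-0.89 ± 0.16, SE; adjusted p = 0.000767, edgeR). COT1 was thus called lower while its relative ZRC1 was not called, with 68.3% coding identity and a longest identical run of 14 bp between them; the difference between their fold changes was not tested. IZH3, the relative of the IZH members, was also lower (-0.83 ± 0.17, SE; adjusted p = 0.00158, edgeR). With upper-quartile factors the log2 fold change was -0.58 for COT1, -0.54 for YKE4 and -0.51 for IZH3, and all 3 were still called. FET4, a low-affinity iron transporter that also carries zinc, measured 81.1 and 56.8 CPM with rapamycin and 74.6 and 75.8 CPM without and was not called.

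**Figure D5:**
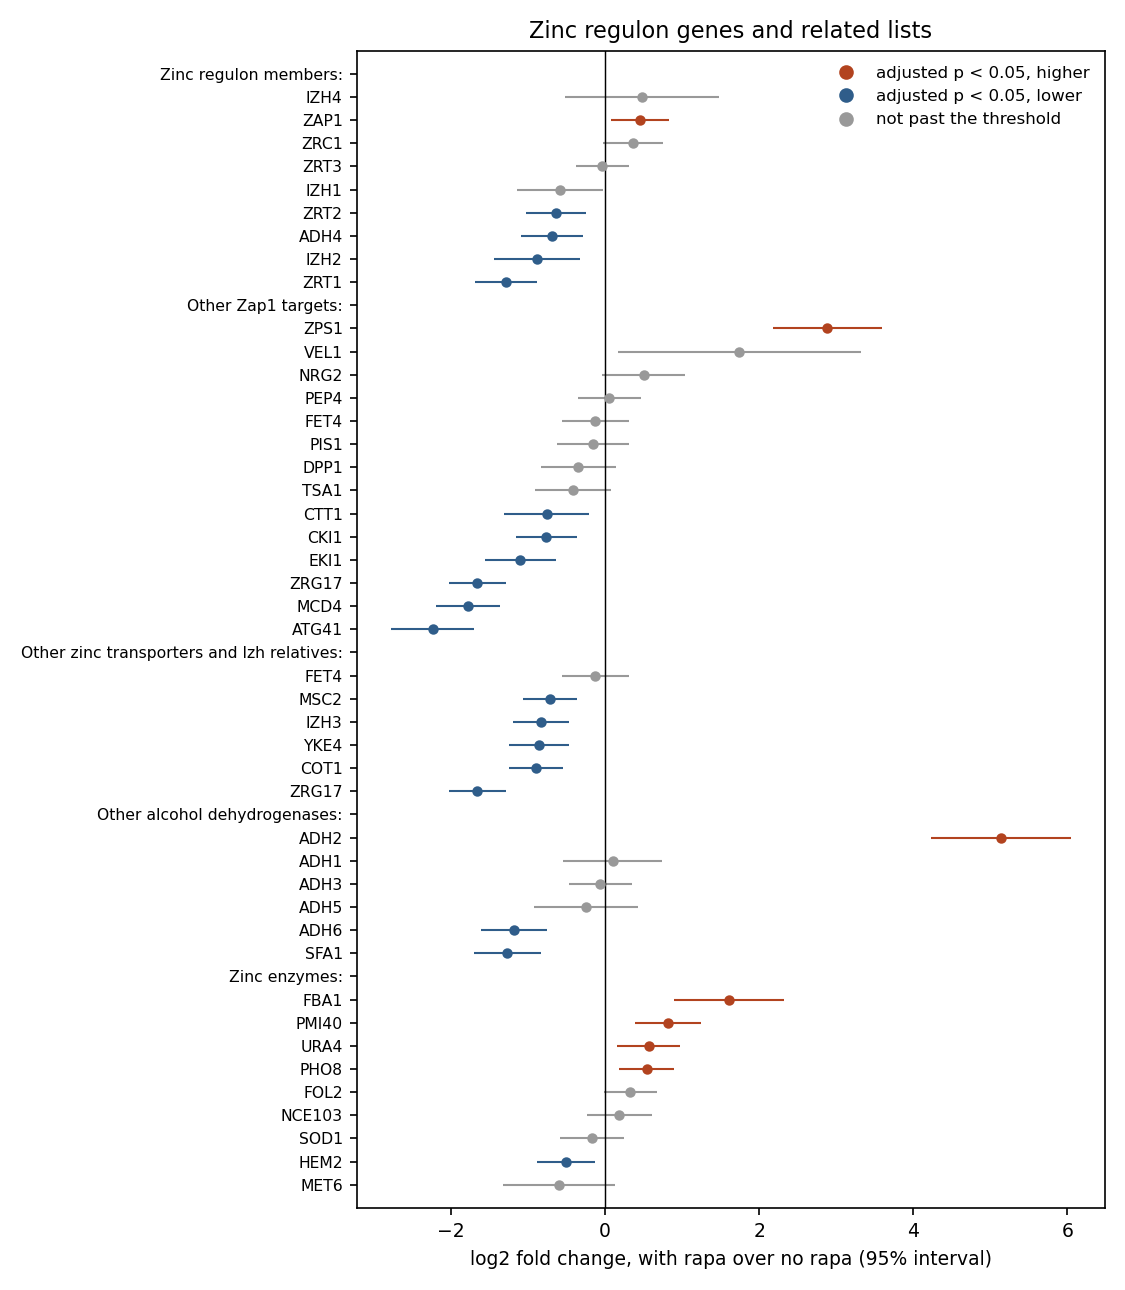
Log2 fold change, with rapa over no rapa (x axis), with its 95% interval for each tested gene of the zinc regulon and of the related lists (y axis); colour gives the call at an adjusted p under 0.05 (edgeR). ZPS1 and ADH2 are the highest at 2.88 and 5.14, ATG41 is the lowest at -2.24, and ZRG17 and FET4 appear in 2 lists.

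Other targets of Zap1 went both ways. Of 15 listed, 14 were in the deposited annotation and tested, and of these 1 was higher, 6 lower and 7 uncalled, with a median log2 fold change of -0.39, so that 7 called of 14 is close to the 46.0% called among all features. ZPS1, for a cell-surface protein made under zinc limitation, was the one higher, at 30.8 and 26.2 CPM with rapamycin and 4.25 and 3.47 CPM without (2.88 ± 0.33, SE; adjusted p = 3.28e-05, edgeR). Lower were MCD4, for an enzyme of glycosylphosphatidylinositol anchor synthesis, at 45.3 and 56.8 CPM with rapamycin and 195.6 and 154.7 CPM without (-1.78 ± 0.19, SE; adjusted p = 2.31e-05). ATG41, an autophagy gene also called ICY2, stood at 90.6 and 57.5 CPM with rapamycin and 283.5 and 415.7 CPM without (-2.24 ± 0.25, SE; adjusted p = 2.71e-05). With ZRG17, described above, these were the 3 lower genes of that list with the smallest adjusted p.

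In the promoter windows searched, the full ZRE match stood in 6 places that lie before 8 genes, since 2 of the places lie between divergent pairs. None of the 8 was called higher, 5 were lower and 3 uncalled, beside 17.1% higher and 30.7% lower among the 4828 tested genes whose promoters were searched. The lower genes were ZRT1, ZRG17, MCD4 and the divergent pair RTC4 (-1.56 ± 0.26, SE; adjusted p = 0.000478, edgeR) and TEX1 (-0.80 ± 0.23, SE; adjusted p = 0.0138). The uncalled ones were PCD1, SDH8 and MRX15, the last being the divergent partner of ZRG17. These 8 genes were named after their values were seen. The sites of the other 2 listed Zap1 targets, shown because both genes were lower as ZRT1 was, were as follows.
ZRG17, chrXIV:699496-699524, minus strand: aaatgatgaACCTTGAAGGTatttttgtt
MCD4, chrXI:140776-140804, minus strand: gaaaaaaaaACCTTAAAGGTaaaaagaac

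The higher gene ZPS1 had no full match but 2 sites with 1 mismatch, A8G and T4C, which began 329 and 314 bp before the start codon. These are the same changes as in the ZRT2 sites, and ZRT2 was lower. Whether sites and fold changes are related was not tested.
ZPS1, upstream site, chrXV:34320-34348, plus strand: ttataattgACCTTCAGGGTtaggaccct
ZPS1, downstream site, chrXV:34335-34363, plus strand: agggttaggACCCTGAAGGTtttttgtag

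Alcohol dehydrogenase genes other than ADH4 likewise went both ways. Of 7 listed, 6 were in the deposited annotation and tested, with 1 higher, 2 lower and 3 uncalled and a median log2 fold change of -0.15, again a share called close to that of all features. ADH2, for the ethanol-consuming enzyme that glucose represses, measured 24.0 and 27.3 CPM with rapamycin and 0.60 and 0.85 CPM without (5.14 ± 0.42, SE; adjusted p = 6.13e-06, edgeR). It shares 88.8% of its coding bases with ADH1, the main fermentative gene, with identical runs of up to 189 bp, so reads can be exchanged between them. ADH1 stood at 2415 and 1472 CPM with rapamycin and 1955 and 1681 CPM without and was not called. Lower were ADH6 (-1.18 ± 0.20, SE; adjusted p = 0.000489) and SFA1, the formaldehyde dehydrogenase gene (-1.27 ± 0.20, SE; adjusted p = 0.000315), both by edgeR. ADH1 and ADH3, which Zap1 is known to repress under zinc limitation, were both uncalled.

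Genes for enzymes that bind zinc moved in both directions. Of 9 zinc enzyme genes, 4 were higher, 1 lower and 4 uncalled, with a median log2 fold change of 0.33. The 5 called of 9 stand close to the 46.0% called among all features, where 19.3% were higher and 26.7% lower. FBA1, for the glycolytic aldolase, measured 6351 and 5071 CPM with rapamycin and 2051 and 1703 CPM without (1.61 ± 0.33, SE; adjusted p = 0.00187, edgeR). PMI40, for mannose-6-phosphate isomerase, had 0.82 ± 0.20 (SE; adjusted p = 0.00504) and lost its call without no rapa replicate 2 (0.110; 0.58). PHO8, for the vacuolar alkaline phosphatase, had 0.54 ± 0.16 (SE; adjusted p = 0.0173) and lost its call without no rapa replicate 1 (0.0941; 0.62) and without no rapa replicate 2 (0.233; 0.44), and stood at 0.86 with upper-quartile factors. HEM2, for an enzyme of heme synthesis, had -0.51 ± 0.17 (SE; adjusted p = 0.0312) and lost its call in 7 of 11 alternatives, among them without with rapa replicate 2 (0.153; -0.33) and without no rapa replicate 1 (0.309; -0.37), all by edgeR or DESeq2.

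The genes whose pattern over the 4 libraries was most like that of ZRT1 or ZAP1 were taken by the smallest root mean square difference of mean-centred log2 CPM among 4503 other open reading frames with a standard symbol. For ZRT1 these were SWI5, a transcription factor gene of late mitosis (difference 0.017), NCA2, a mitochondrial protein gene (0.024), and CPA1, of arginine synthesis (0.026). For ZAP1 they were SRM1, for the exchange factor of the nuclear transport GTPase (0.015), RIA1, of ribosome assembly (0.020), and DIA4, for the mitochondrial seryl-tRNA synthetase (0.026). Over 4 libraries such likeness mostly reflects a like fold change.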

How the data were processed

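The authors deposited raw read counts per annotated transcript for 4 libraries and the transcript annotation, whose other columns used here are start and end positions. The submitters' processing notes name, in no stated role or order, HTSeq, SAMtools and STAR 2.3.0, and the builds R64 and sacCer3. Rows without a feature name were dropped before testing. Reads outside features were 50.5% and 49.95% with rapamycin and 33.7% and 33.1% without. Multiply aligned reads were listed at 0. The spike-ins the protocols mention and SSL2 were not analysed here.

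The deposited counts entered edgeR 4.0.16 under R 4.3.3 (TMM, default filterByExpr, quasi-likelihood F-test of group, two-sided, Benjamini-Hochberg over 5707 features, threshold 0.05); DESeq2 1.42.0 was an alternative. The SE is the absolute log2 fold change over the square root of F, and 95% intervals use the test's degrees of freedom. The code was tested on simulated data. Replicates differed beyond counting noise (chi-square per degree of freedom 65.7 with rapamycin, 80.4 without). Sequences came from the RefSeq R64 genome; all 4842 reference open reading frames matched by name lay inside their deposited transcript. Coding identity is from global alignment (Biopython 1.88).

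The members and lists were chosen with earlier results of these data known. Named genes were every member, up to 3 called genes per direction with the smallest adjusted p in each list, divergent or overlapping neighbours, and the 3 nearest patterns to ZRT1 and ZAP1.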

Additional observations from a re-analysis of the deposited data

Results flagged for a closer look

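Reads outside every annotated feature made up 50.5% of reads in with rapa replicate 1 and 49.95% in with rapa replicate 2, above 33.7% and 33.1% in the no rapa libraries. These reads are outside the counts used for the zinc regulon, and their part in its values was not tested.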

How the results depend on the processing

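Of the 9 genes, ZRT1 kept its direction and its call in all 11 alternatives. ZRT3, uncalled throughout, changed sign to 0.036 with RLE size factors, 0.28 with upper-quartile factors, 0.071 with total counts, 0.030 with DESeq2, 0.087 with open reading frames alone and 0.019 without with rapa replicate 2, and ran from -0.073 to 0.019 with 1 library left out; with TMM it was -0.04. The other 8 genes kept their direction in all 11. The count of the 9 genes called higher, 1 with TMM, was 2 with upper-quartile factors, 2 with total counts, 2 with open reading frames alone and 0 with no low-count filter, and 0 to 1 with 1 library left out. The count called lower, 4 with TMM, was 1 with upper-quartile factors, 2 with total counts and 1 to 5 with 1 library left out. Their median log2 fold change was -0.26 with upper-quartile factors, -0.47 with total counts, -0.46 with open reading frames alone and -0.62 to -0.43 with 1 library left out. Of all features, 1706 were higher and 961 lower with upper-quartile factors, against 1101 and 1522 with TMM. With 1 library left out, 1588 to 3312 were called, 531 to 1535 higher and 1056 to 1777 lower. Such a fit has a lone library in the smaller group, which is assumed to vary like the other group's pair. Of the related genes, 6 were higher and 13 lower with TMM, and 3 to 7 higher and 10 to 15 lower with 1 library left out. Where no construction of the alternative explains a change, the cause was not tested.

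With the replicate number as a block, 1 of the 9 genes was higher and 4 lower, and 2970 features were called. The labels do not say that a number marks a shared culture or day, and with 2 pairs it only names the libraries; the replicate differences of the groups correlated at 0.22 across features, which are not independent. The depth limits IZH4 most, with 76 reads in its lowest library.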

Other observations

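In with rapa replicate 2, the row for reads outside every feature held 12685766, which is 3 fewer than the 12685769 counts summed over all features.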
